A study of Mus musculus with 2 samples.

Results

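The RNA of 31 genes of glycolysis and the hypoxia response, out of 32245 gene symbols in the files, was followed through the cell types of optic nerve tissue from Nf1-OPG mice. The genes were taken by symbol from a list and were all present in both libraries. They comprise 18 enzymes of glycolysis and lactate formation, 6 transporters and regulators (the glucose carriers Slc2a1 and Slc2a3, the lactate carriers Slc16a1 and Slc16a3, and the regulators Pfkfb3 and Pfkfb4), 6 targets of the hypoxia response (Pdk1, Bnip3, Ddit4, Egln3, Vegfa, Adm) and the hypoxia factor gene Hif1a. The vancomycin group was given this antibiotic, and the control group PBS according to the series design, from 6 to 12 weeks of age. In both groups 1 Nf1 allele carries a neomycin cassette in exon 31 and the floxed other allele is deleted by GFAP-Cre in neuroglial progenitors, a model of low-grade optic glioma in which Nf1 is thus reduced or lost in controls too. Nerves of 10 mice were pooled at 12 weeks, so each group is 1 library. The protocol text also describes meningeal dura, while the tissue label of both libraries is optic nerve.

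Glycolysis splits glucose to pyruvate, and lactate dehydrogenase converts pyruvate and lactate into each other. Several steps have more than 1 gene, and tissues differ in which copy they use: the product of Ldhb favours lactate use in tissues rich in oxygen, that of Ldha lactate formation. When oxygen is low, the protein of Hif1a is stabilised and activates many of the enzyme genes together with targets such as Vegfa, the vascular growth factor, and Adm, a vasodilator peptide. In nervous tissue, astrocytes and oligodendrocytes are known for passing lactate to axons, while activated immune cells raise glycolysis.

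The 15726 vancomycin cells kept held 6970 UMIs at the median (unique molecular identifiers, which tag single captured molecules), and the 4108 control cells kept held 4870.5. Cells were assigned to 17 types by gates of 8 marker genes each, which left 21.2% of vancomycin cells and 20.5% of control cells unassigned. The check markers held out of each gate were highest in their own type in most cases, with the weakest result in control plasma cells (2 of 4). In 6 types both libraries held at least 50 cells: T cells (3760 vancomycin, 1824 control), natural killer (NK) cells (103, 75), plasma cells (800, 92), microglia (1026, 943), dendritic cells (651, 58) and fibroblasts (215, 100). The control library held 0 gated oligodendrocytes and 1 endothelial cell, so these types are described from the vancomycin library alone. The libraries shared 100 cell barcodes. Levels are given as CPM, the UMIs of a gene scaled to a common total of all UMIs in the cell type (counts per 1e6). Groups of 1 library allow no test, and every interval is a 95% interval for counting error only. No share over all genes is given for intervals that overlap or that leave out a ratio of 1. Counts of such intervals therefore describe the listed genes only.

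The lactate dehydrogenase genes, Ldha (ENSMUSG00000063229, chromosome 7, 46841475 to 46855627 on GRCm38) and Ldhb (ENSMUSG00000030246, chromosome 6, 142490249 to 142507957), divided the cell types widely. Ldhb made up 90.7% of Ldha and Ldhb UMIs in oligodendrocytes (11624 of 12811, interval 90.2 to 91.2), the myelin-forming cells. In microglia, the resident macrophages, it made up 54% in the vancomycin library (3493 of 6470, interval 52.8 to 55.2) and 54.3% in the control library (2789 of 5133, 53 to 55.7). At the other end, dendritic cells had an Ldhb share of 0.429% with vancomycin (21 of 4893) and 0 of 250 UMIs in the control, an interval up to 1.46%. NK cells were also low, at 1.19% (3 of 252) against 0.658% (2 of 304). Fibroblasts lay between them, at 30.1% with vancomycin (27.2 to 33.1), against 30.5% in control cells (25.8 to 35.5). The 6 compared types had the same order in both libraries, although the intervals of NK and dendritic cells overlapped. Plasma cells lay between fibroblasts and T cells, at 13.2% with vancomycin and 16.8% in the control. That control share was 1.49% with a stricter gate (4 markers and 3 more than any other type), so the place of plasma cells depended on the gate.

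The other glial cells were also rich in Ldhb. In the vancomycin library Ldhb made up 69.7% in astrocytes (interval 65.5 to 73.7) and 50.5% in oligodendrocyte precursors (49.1 to 52). The control library held only 31 astrocytes and 49 precursors, in which the shares were 54.2% (47.1 to 61.2) and 43.6% (38.3 to 49). Oligodendrocytes differed from the other glia in the level of Ldha, which was 26.6 CPM there, against 298.9 CPM in astrocytes of the same library. UMIs of this 5′ assay are not set by transcript length, but capture can differ between genes, so shares are compared between types and are not a ratio of molecules within a type.

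T cells had a higher Ldhb share in the vancomycin library, 8.81% (1165 of 13223, 8.33 to 9.31), than in the control library, 4.67% (315 of 6748, 4.18 to 5.2). The Ldhb level was 57.15 CPM with vancomycin and 29.73 CPM in the control (ratio 1.92, interval 1.7 to 2.18), while Ldha was 591.6 and 607.2 CPM. Both T cell subsets had the difference: CD8 T cells were at 40.06 CPM with vancomycin and 20.63 CPM in the control, CD4 T cells at 71.85 and 44.09 CPM. Oligodendrocyte markers, summed over 8 genes, were at 58.33 CPM in vancomycin T cells with 0 of 8 at 0, and at 2.454 CPM in control T cells with 5 of 8 at 0. NK cells of the vancomycin library had these markers at 38.35 CPM. Ldhb had 3 UMIs in vancomycin and 2 in control NK cells, too few to be compared. The part of oligodendrocyte RNA in the T cell Ldhb difference was not tested.

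The promoters of these genes are shown because the hypoxia response acts through the core motif ACGTG or GCGTG. They come from RefSeq on GRCm38.p6, the 250 bases before a transcript start, with the motifs of either strand in capitals. Where a gene had several windows, the most upstream with at most 30 exon bases is printed, a choice made with the motif counts known. The Ldha window (chr7:46845554-46845803, plus strand) lies within the annotated gene but overlaps 0 exon bases of GENCODE M21, and the Ldhb window (chr6:142507958-142508207, minus strand) lies directly before the gene.
Ldha: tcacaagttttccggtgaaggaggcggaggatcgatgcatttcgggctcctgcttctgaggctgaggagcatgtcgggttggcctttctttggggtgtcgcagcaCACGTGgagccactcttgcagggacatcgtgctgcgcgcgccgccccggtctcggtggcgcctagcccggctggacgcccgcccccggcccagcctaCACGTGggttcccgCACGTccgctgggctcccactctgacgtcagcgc
Ldhb: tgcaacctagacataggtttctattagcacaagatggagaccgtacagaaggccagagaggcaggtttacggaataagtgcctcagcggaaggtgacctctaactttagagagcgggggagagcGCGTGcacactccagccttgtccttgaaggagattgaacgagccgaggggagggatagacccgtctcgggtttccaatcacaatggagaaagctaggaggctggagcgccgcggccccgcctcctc
The printed Ldha window held ACGTG 5 times, where CACGTG counts on both strands, and the Ldhb window held GCGTG 1 time. A further Ldha window, at a start downstream (chr7:46846832-46847081), held 0 ACGTG and 1 GCGTG, the same as Ldhb. Windows were found for 30 of the 31 genes, and 35 of their 44 windows (79.5%) held a motif, against 38.6% of all 32851 windows. ACGTG alone was in 20 of the 44 windows (45.5%), against 16.6% of all. A motif was in 75.9% of the core enzyme windows and 75% of the hypoxia target windows. Some windows of Aldoa, Eno1 and Pfkm overlap, so a motif there counts more than once, and the windows were not matched for base composition. A match is a description of the letters and not evidence of a bound site.

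**Figure D1:**
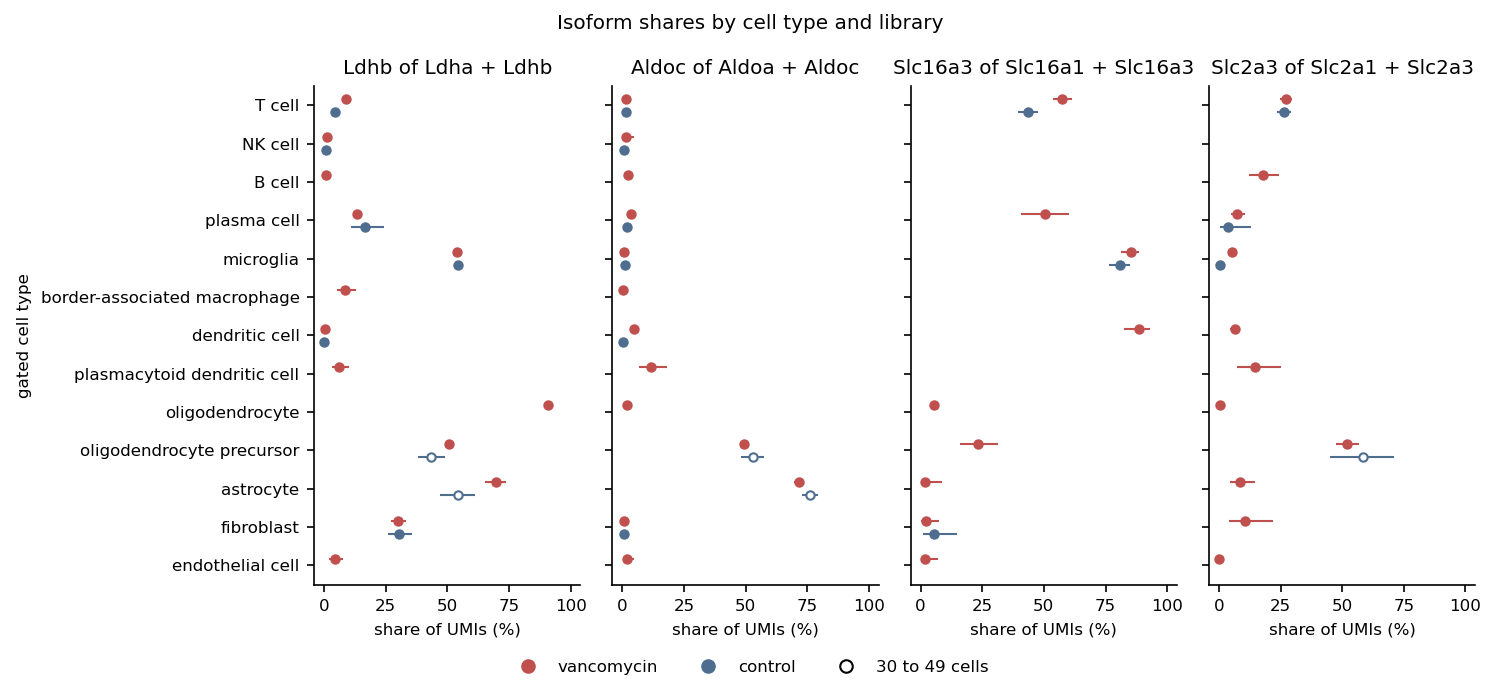
Share of the second gene among the UMIs of its 2-gene family, in percent on the horizontal axis, by gated cell type, with exact binomial 95% intervals as bars. Points of the vancomycin library lie above those of the control library, open points rest on 30 to 49 cells, and a missing point means fewer than 50 family UMIs or too few cells. Ldhb runs from 90.7% in oligodendrocytes to under 1% in dendritic cells, and Aldoc is high in astrocytes and oligodendrocyte precursors.

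Among the aldolase genes, Aldoc, the brain form, was highest in astrocytes and in oligodendrocyte precursors. It made up 71.6% of Aldoa and Aldoc UMIs in vancomycin astrocytes (69.6 to 73.7) and 76.1% in the 31 control astrocytes (72.7 to 79.3). In oligodendrocyte precursors the shares were 49.4% (48.2 to 50.7) with vancomycin and 52.9% (48.3 to 57.5) in the control. Mature oligodendrocytes, the next stage of that lineage, had 1.8% (579 of 32198). With each cell thinned to 1000 UMIs, 84.4% of vancomycin astrocytes (92 of 109) and 96.4% of control astrocytes (27 of 28) held an Aldoc UMI, against 0.508% of vancomycin T cells and 0.392% of control T cells. Among dendritic cells Aldoc was 19.86 CPM with vancomycin (172 UMIs) and 1.594 CPM in the control (1 UMI), a ratio of 12.5 with an interval from 2.21 to 495 and a log2 ratio of 1.36 with 10 CPM added to both. With 50 CPM added it was 0.44, and with the looser gate 0.98.

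Hexokinase, which traps glucose in the cell, differed most between microglia on one side and T cells and oligodendrocytes on the other. Hk1, the widely expressed form, was 82.2% of hexokinase UMIs in vancomycin T cells and 81.8% in control T cells, and 92.9% in oligodendrocytes. In microglia Hk1 was only 5.66% with vancomycin (4.47 to 7.04), against 7.52% in control cells (6.14 to 9.1). Microglia used Hk2, the inducible form, at 55.2% (52.5 to 57.9) and 52.4% (49.6 to 55.2), and Hk3, a form of myeloid cells, at 39.1% (36.5 to 41.8) and 40.1% (37.4 to 42.8). All 3 shares overlapped between the libraries. Border-associated macrophages of the vancomycin library had an Hk3 share of 47.5% (48 of 101 UMIs, 37.5 to 57.7), overlapping that of microglia, and an Hk1 share of 25.7% (17.6 to 35.4). Dendritic cells were close to them in Hk1, at 26.8% (23.4 to 30.5) in vancomycin and 38% (24.7 to 52.8) in control dendritic cells. Plasma cells lay between T cells and microglia: Hk2 was 33.7% (29 to 38.6) in vancomycin and 50% (25 of 50 UMIs, 35.5 to 64.5) in control plasma cells, and Hk1 52.8% and 40%.

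Fibroblasts were the exception in hexokinase. Hk2 was 17.3% with vancomycin (9 of 52 UMIs, interval 8.23 to 30.3), against 57.4% in control cells (31 of 54, 43.2 to 70.8), and Hk1 75% and 38.9%. These counts are small, and the summed level of 12 immediate early genes, a list chosen after the data were seen, was also lower in vancomycin fibroblasts, 11619 CPM, than in control fibroblasts, 38988 CPM. Its part in the hexokinase shares was not tested.

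Phosphofructokinase, the committed step of glycolysis, gave another pattern. Pfkp, the platelet form, was 88.2% of the family in vancomycin dendritic cells (86.9 to 89.5) and 91.2% in control dendritic cells (85.7 to 95.1). T cells had 70.8% (69.3 to 72.2) with vancomycin and 77.3% (75.5 to 79.1) in the control, and NK cells 74.4% and 75%. Microglia instead held mainly Pfkl, the liver form, at 67.6% (64.1 to 70.9) with vancomycin and 80.5% (76.1 to 84.4) in the control, and oligodendrocytes had 74.3% Pfkl. Pfkm, the muscle form, was the largest part in vancomycin astrocytes (58.7%, 51.6 to 65.4) and in oligodendrocyte precursors (48.8% with vancomycin, 56.8% in the control). In the 31 control astrocytes Pfkm was 37.9% (26.2 to 50.7) and Pfkp 34.8% (23.5 to 47.6), with overlapping intervals. The Pfkp level in microglia was 25.45 CPM with vancomycin and 8.073 CPM in the control. The ratio of 3.15 (2.32 to 4.36) stayed just inside the 2-fold limit after the 10 CPM added to both (log2 ratio 0.97). With cells thinned to 1000 UMIs the control share of Pfkp in microglia was 5.36%, in place of 13.9%.

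**Figure D2:**
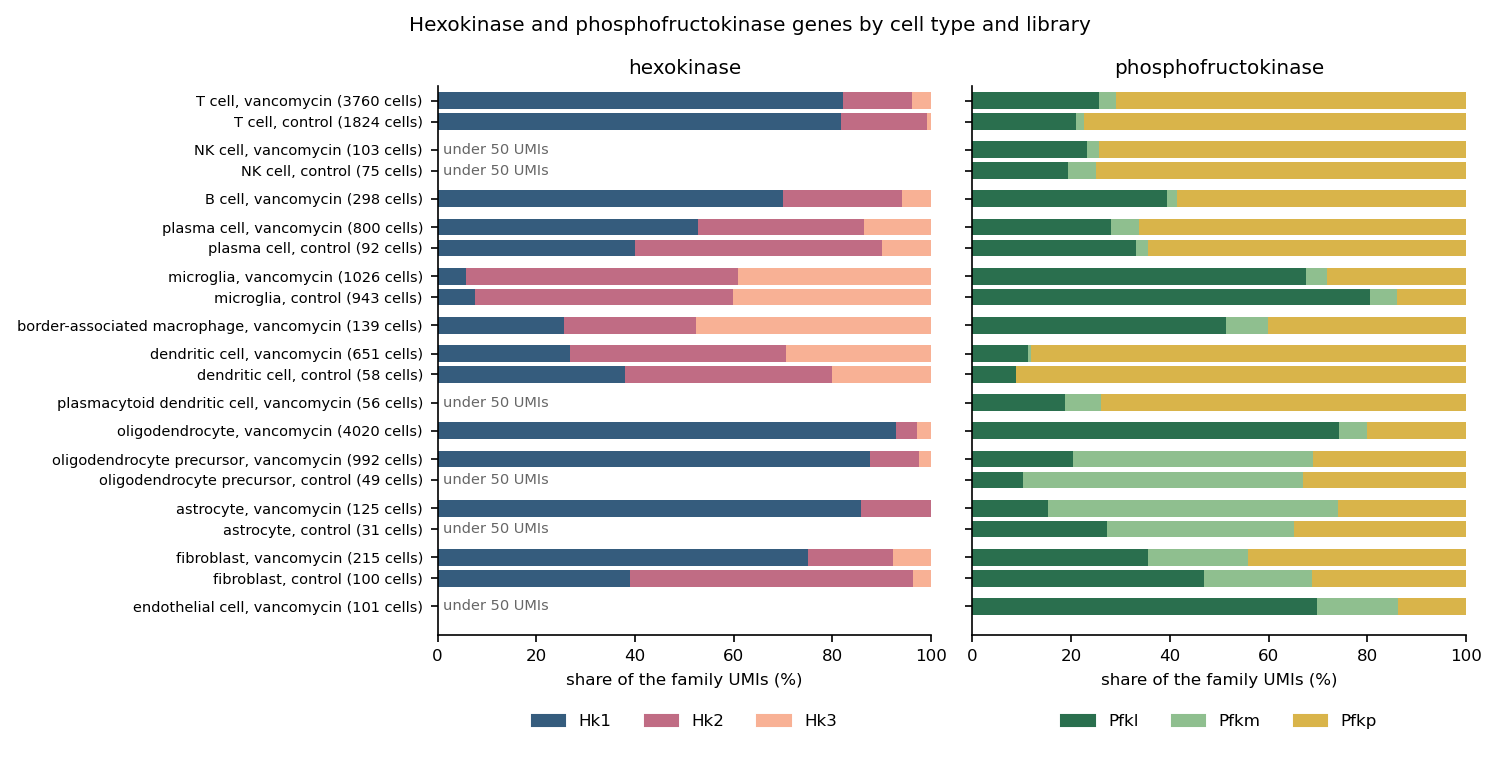
Make-up of the hexokinase (left) and phosphofructokinase (right) genes, as the percentage of the family's UMIs, by gated cell type and library, with the number of cells beside each name. Bars are left out under 50 family UMIs. Microglia are mostly Hk2 and Hk3 in both libraries (Hk1 5.66% and 7.52%), and dendritic cells are mostly Pfkp (88.2% and 91.2%).

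The carriers of glucose and lactate also went by cell type. Slc2a1, the glucose carrier of the blood-brain barrier, was 2821 CPM (2666 to 2983) in the 101 endothelial cells of the vancomycin library, and the next type, astrocytes, had 226.1 CPM (187.1 to 270.8). Slc2a3, the carrier known from neurons, was 52.1% of the 2 carriers in vancomycin oligodendrocyte precursors (47.4 to 56.7) and 58.3% in control precursors (44.9 to 70.9), and 27.2% and 26.3% in T cells. Slc16a3, a carrier known for lactate export, was 85.3% of the lactate carriers in vancomycin microglia (81.4 to 88.7) and 81% in control microglia (76.6 to 84.9). Fibroblasts had 2.17% (2 of 92 UMIs) and 5.26% (3 of 57), oligodendrocytes 5.32% and endothelial cells 2%, so these held mainly Slc16a1. In T cells Slc16a3 was 57.5% with vancomycin (53.6 to 61.3), against 43.5% in control cells (39.4 to 47.7); Slc16a1 was 13.83 CPM against 30.11 CPM there (ratio 0.459, 0.39 to 0.541).

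Eno2, the neuronal enolase, stayed a minor part of enolase UMIs. Its highest share was in fibroblasts, 12.6% with vancomycin (9.63 to 16), against 15.5% in control cells (10.1 to 22.4), and NK cells had 0 of 249 and 0 of 209 UMIs. Pfkfb3 made up most of the Pfkfb3 and Pfkfb4 UMIs in T cells, microglia and dendritic cells, and Pfkfb4 reached 42% in oligodendrocytes and 45.1% in vancomycin oligodendrocyte precursors (93 of 206 UMIs), where it was 60.6% without the top 5% of cells by UMIs. For 6 of the 8 gene families (by the share of Slc2a3, Hk3, Pfkp, Eno2, Ldhb or Slc16a3), the compared type with the highest share was the same in both libraries; Aldoc and Pfkfb4 were the exceptions. In 19 of the 27 pairs of a 2-gene family and a type, the intervals of the libraries overlapped. The 8 other pairs were Ldhb and Slc16a3 in T cells, Slc2a3, Pfkfb4 and Eno2 in microglia, and Aldoc, Pfkfb4 and Eno2 in dendritic cells. These intervals narrow as UMIs increase, and other gene pairs were not counted, so these counts do not measure how far isoform choice differed.

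The enzymes with 1 main gene were expressed in all types. Gapdh was the most abundant of the 31 genes in the types with at least 50 cells except endothelial cells, where Slc2a1 was. In the 31 control astrocytes Aldoc (2680 CPM) was above Gapdh (2289 CPM), and in the 44 control innate lymphoid cells Ldha (2282 CPM) was above Gapdh (1352 CPM). Its levels ran from 713.4 CPM in vancomycin plasma cells to 2778 CPM in vancomycin astrocytes, and in the control from 521.7 CPM in plasma cells to 2218 CPM in T cells. Immunoglobulin genes took 57.8% of the UMIs of vancomycin plasma cells and 63.7% of those of control plasma cells, which lowers the CPM of every other gene there. Astrocytes of the vancomycin library had the highest levels of 12 genes. For Hk1, Pfkm, Aldoa (1033 CPM), Aldoc, Eno1 (1489 CPM) and Ldhb the interval lay above that of the next type. For Tpi1, Gapdh, Pgk1, Pkm, Pdk1 and Vegfa it overlapped the next type, as for Gapdh at 2778 CPM and 2645 CPM in oligodendrocytes. Near-identical pseudogenes exist for several of these enzymes, Gapdh, Pgk1, Ldha and Tpi1 among them, so how the authors' counting split such reads is uncertain.

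In the vancomycin library different hypoxia targets were highest in different cell types. Among the 6 control types with at least 50 cells, fibroblasts had the highest levels of Bnip3 (57.05 CPM), Ddit4, Egln3 (38.03 CPM) and Adm (34.86 CPM). Each of these had an interval above that of the next type. Pdk1 was also highest there, at 26.94 CPM, with overlapping intervals, and Vegfa was second, at 141 CPM. Vegfa was highest in NK cells of the control library (435.2 CPM) and in astrocytes and NK cells of the vancomycin library (161 and 140.6 CPM). Adm was 75.26 CPM in vancomycin endothelial cells, and the next type of that library, fibroblasts, had 21.6 CPM. Ddit4, an inhibitor of mTOR signalling, was 497.2 CPM in endothelial cells, 303.2 CPM in vancomycin fibroblasts and 336 CPM in control fibroblasts. In the vancomycin library Bnip3, a mitophagy receptor, was 90.32 CPM in oligodendrocytes and 66.14 CPM in endothelial cells, with overlapping intervals. Hif1a itself was highest in T cells, 303.3 CPM with vancomycin and 430.1 CPM in the control, in both cases with an interval above that of the next type.

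**Figure D3:**
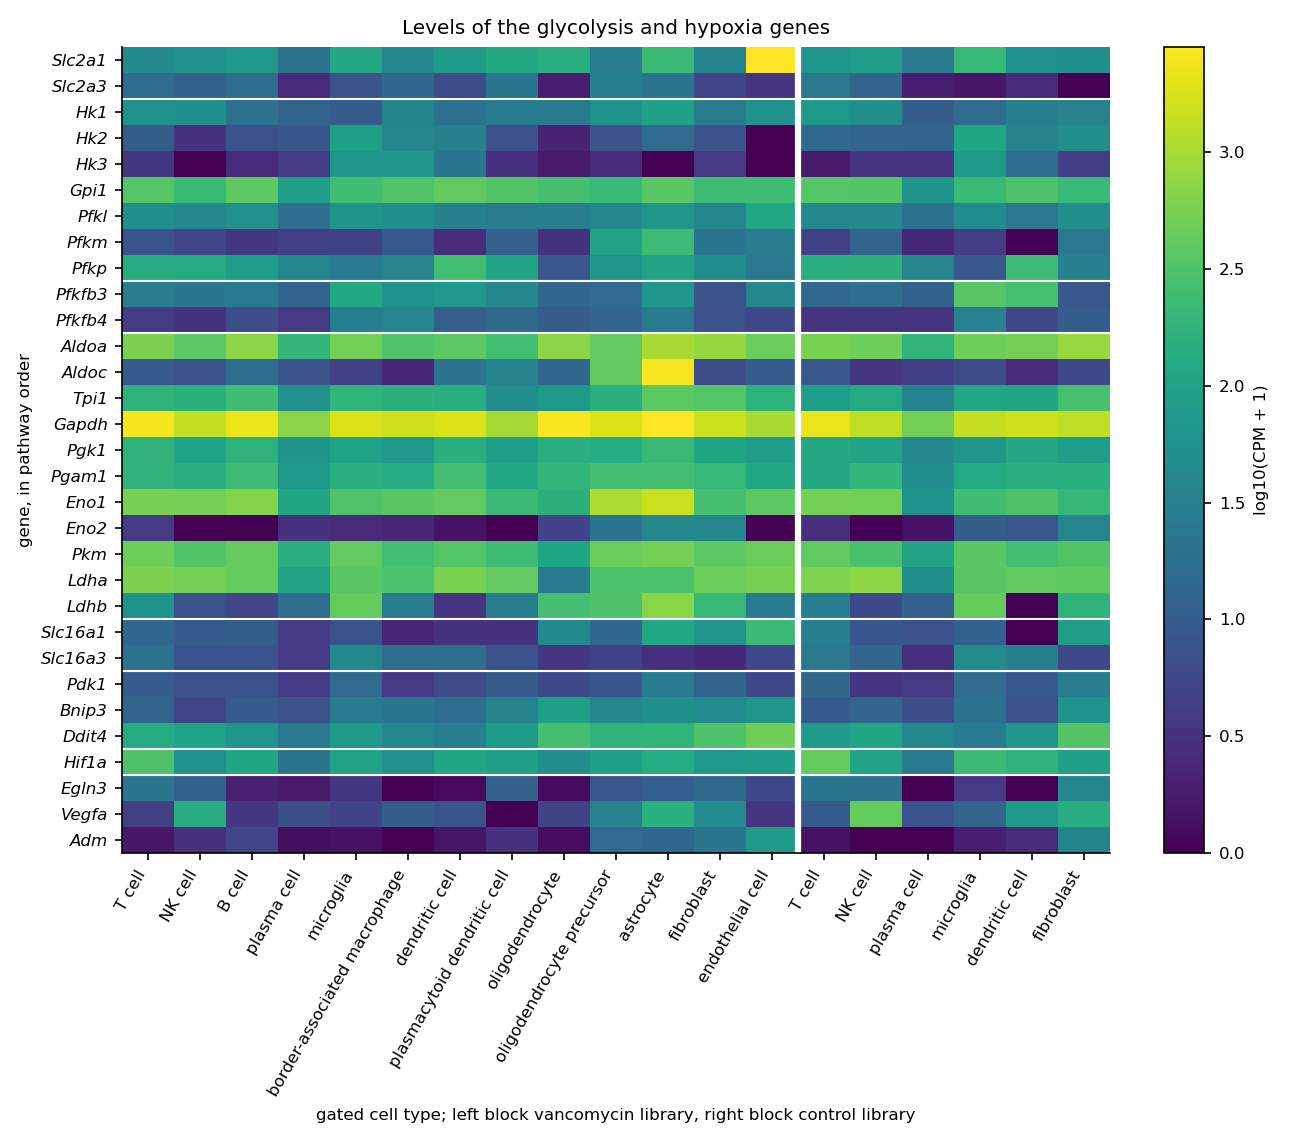
Level of each of the 31 genes as log10 of CPM plus 1, by gated cell type, for the 13 types with at least 50 cells in the vancomycin library (left of the white bar) and the 6 in the control library (right). White lines separate groups of pathway role. Slc2a1 stands out in endothelial cells (2821 CPM), Aldoc in astrocytes (2610 CPM) and Vegfa in NK cells (140.6 CPM with vancomycin, 435.2 CPM in the control).

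The vancomycin and control libraries were then compared within the 6 types. A log2 ratio sets vancomycin over control with 10 CPM added to both, a gene was measured with at least 50 UMIs over both libraries, and a size of at least 1 counts as past 2-fold. In T cells 0 of 30 measured genes passed 2-fold, against a background of 3.52% of all 11938 genes in either direction, and in plasma cells 0 of 27, against 3.99% of 9633. The background of plasma cells was 3.05% higher and 0.934% lower. NK cells had 1 of 14 past 2-fold (background 9.55%), and it was lower (background 5.56%). Microglia had 3 of 29 (background 4.77%), with 1 higher (2.56%) and 2 lower (2.21%). Dendritic cells had 3 of 24 (8.78%), with 1 higher and 2 lower, and fibroblasts 1 of 21 (5.34%), which was lower. All but 1 of these 8 differences concerned a regulator, a hypoxia target or Hif1a, and the exception was Aldoc in dendritic cells. This division rested on the 10 CPM added. Without it, the core enzymes Pfkp (ratio 3.15) and Eno2 (0.168) in microglia and Hk3 (3.44) in T cells were also beyond 2-fold. Counts this small lie too near the background to be read as a property of the 31 genes, and the differences are described singly. The mice behind each library were pooled, and the libraries differ in Cell Ranger version too, so treatment and library cannot be told apart.

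Vegfa (ENSMUSG00000023951, chromosome 17, 46016993 to 46032369) was lower with vancomycin in NK cells. It was 140.6 CPM in vancomycin NK cells (66 UMIs) and 435.2 CPM in control NK cells (178 UMIs), a ratio of 0.323 (0.24 to 0.431). Thinned to 1000 UMIs per cell, 8.74% of vancomycin NK cells (9 of 103) and 30.7% of control NK cells (23 of 75) held a Vegfa UMI, against 0.341% of vancomycin B cells. Marker genes of astrocytes were at 2.131 CPM in vancomycin and 2.445 CPM in control NK cells, with 7 of 8 at 0 in each, and those of fibroblasts at 12.78 and 2.445 CPM. Other markers were more abundant: those of dendritic cells at 191.7 and 295.8 CPM, endothelial cells at 59.66 and 122.2 CPM, and plasma cells at 289.8 and 88.01 CPM. Within the NK gate Eomes was detected in 57.3% of vancomycin and 74.7% of control cells, and Klre1 in 96.1% and 82.7%. The part of other cell types and of this make-up in the Vegfa difference was not tested. Ldha, the lactate-forming enzyme, was 530.5 CPM in vancomycin and 738.3 CPM in control NK cells (0.719, 0.605 to 0.853), within 2-fold.

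Fibroblasts had a like difference in Vegfa, 44.6 CPM with vancomycin (64 UMIs) and 141 CPM in the control (89 UMIs), a ratio of 0.316 (0.226 to 0.441). Astrocytes, shown although the control held only 31 cells, were at 161 CPM against 364.8 CPM (0.441, 0.317 to 0.616). In both types the 12 immediate early genes, which respond within minutes to stress and dissociation, were also lower with vancomycin: 10 of 12 were past 2-fold lower in fibroblasts, and in astrocytes all 11 measured, at 2955 CPM summed against 20143 CPM. Their part in the Vegfa difference was not tested. Astrocyte markers were at 777.7 CPM in vancomycin fibroblasts and 841.5 CPM in control fibroblasts. In NK cells the same 12 immediate early genes summed to 7755 CPM with vancomycin and 6577 CPM in the control. Over the 6 types the Vegfa log2 ratio was below 0 in 6, with an interval below a ratio of 1 in 5. Setting each type against the median of the others took the NK cell and fibroblast values to -0.89 and -0.79.

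The Vegfa window before the most upstream start (chr17:46032378-46032627, minus strand, 0 exon bases) lies just before the gene and held neither motif, which says only that these letters are not in this window. The Pfkfb3 window (chr2:11502091-11502340, minus strand, with 11 exon bases) lies at a start inside the annotated gene and held ACGTG 2 times, as 1 CACGTG, and GCGTG 1 time. Each gene has a further window with more exon bases, not printed: that of Vegfa (chr17:46025164-46025413) held ACGTG 1 time and GCGTG 1 time, and the upstream one of Pfkfb3 (chr2:11553930-11554179) held ACGTG 1 time.
Vegfa: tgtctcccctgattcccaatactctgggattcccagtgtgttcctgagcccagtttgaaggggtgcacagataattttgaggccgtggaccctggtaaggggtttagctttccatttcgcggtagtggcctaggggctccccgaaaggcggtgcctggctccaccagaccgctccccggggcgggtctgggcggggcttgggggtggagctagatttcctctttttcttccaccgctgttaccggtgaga
Pfkfb3: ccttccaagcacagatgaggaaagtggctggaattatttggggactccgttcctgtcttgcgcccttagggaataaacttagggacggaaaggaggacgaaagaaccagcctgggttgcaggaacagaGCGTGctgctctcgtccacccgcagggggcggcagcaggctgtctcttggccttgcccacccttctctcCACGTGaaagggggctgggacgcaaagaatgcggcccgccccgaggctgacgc

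Pfkfb3 (ENSMUSG00000026773, chromosome 2, 11471433 to 11554077), whose product makes an activator of phosphofructokinase, was lower with vancomycin in the myeloid types. Microglia had 124.3 CPM with vancomycin (1016 UMIs) and 356 CPM in the control (2293 UMIs), a ratio of 0.349 (0.324 to 0.376). Dendritic cells had 68.69 CPM (595 UMIs) and 282.2 CPM (177 UMIs), a ratio of 0.243 (0.205 to 0.29). T cells went the other way within 2-fold, at 27.03 CPM with vancomycin and 14.06 CPM in the control (1.92, 1.6 to 2.32). Pfkfb4 in microglia was 29.49 and 33.38 CPM (0.883, 0.732 to 1.07), so its share of the pair was 19.2% with vancomycin and 8.57% in the control.

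Microglia also had less Hif1a (ENSMUSG00000021109, chromosome 12, 73901375 to 73947530), 96.79 CPM with vancomycin and 224.3 CPM in the control (0.431, 0.395 to 0.471), and more Ddit4, 73.66 CPM against 25.46 CPM (2.89, 2.43 to 3.46). Hif1a came to -0.64 when set against the median of the other types, and Ddit4 to 0.71 with 50 CPM added, both inside 2-fold. Slc2a1 was 120.3 CPM against 201.8 CPM (0.596, 0.548 to 0.648), within 2-fold. Gapdh, Tpi1, Pgk1 and Eno1 had ratios of 1.35, 1.56, 1.5 and 1.27, all with intervals above 1. In T cells these enzymes had ratios of 1.14, 2.05, 1.45 and 1.05, where Pfkfb3 was higher (1.92) and Hif1a lower (0.705). Immediate early genes summed to 26759 CPM in vancomycin microglia and 20746 CPM in control microglia, dendritic cell markers to 264.3 and 405.1 CPM, and neutrophil markers to 134.5 and 153.1 CPM. Oligodendrocyte markers, from a type with 262.2 CPM of Ddit4, summed to 68.52 CPM in vancomycin microglia and 28.88 CPM in control microglia. Within the microglia gate Sall1 was detected in 44.8% of vancomycin and 21.6% of control cells, and Fcrls in 15.6% and 31.5%. P2ry12 was detected in 93.8% and 94%. The part of the other cell types and of this make-up in the microglial differences was not tested.

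In dendritic cells Vegfa was 6.927 CPM with vancomycin (60 UMIs) and 73.33 CPM in the control (46 UMIs), a ratio of 0.0945 (0.0633 to 0.142). The make-up of the gate differed: cells with Ccr7 or Fscn1, markers of mature dendritic cells, were 32.4% of vancomycin dendritic cells (211 of 651) and 70.7% of control dendritic cells (41 of 58). Within cells that held either marker, a split made after the data were seen, Pfkfb3 was 143.8 CPM with vancomycin and 456.8 CPM in the control (0.315, 0.262 to 0.379), and Vegfa 11.75 and 99.75 CPM (0.118, 0.0705 to 0.195). Among the cells with neither marker the control held only 17 cells and 3 Pfkfb3 UMIs, and the ratio was 3.06 (1.04 to 15). Vegfa in the cells with neither marker was 4.911 CPM with vancomycin (30 UMIs) and 32.47 CPM in the control (8 UMIs), too few UMIs to count as measured. The part of the gate make-up in the Pfkfb3 and Vegfa differences was not tested.

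Ddit4 (ENSMUSG00000020108, chromosome 10, 59949669 to 59951834) took different directions in different types. It was higher with vancomycin in microglia and, within 2-fold, in T cells (136.3 CPM against 79.66 CPM, ratio 1.71, 1.58 to 1.85). Plasma cells had 22.44 CPM with vancomycin and 40.39 CPM in the control (0.556, 0.439 to 0.711), and dendritic cells 28.63 and 62.17 CPM (0.461, 0.328 to 0.663). The dendritic value rested on the cells with neither Ccr7 nor Fscn1, at 26.19 CPM against 121.8 CPM, of which the control held 17 with 30 Ddit4 UMIs. The dendritic cells with either marker had 34.47 CPM with vancomycin and 23.63 CPM in the control (1.46, 0.735 to 3.3). Oligodendrocyte precursors, with 49 control cells, were at 174.6 CPM against 77.89 CPM (2.24, 1.62 to 3.18). Immediate early genes were again lower in vancomycin precursors, 6994 CPM summed against 34946 CPM.

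**Figure D4:**
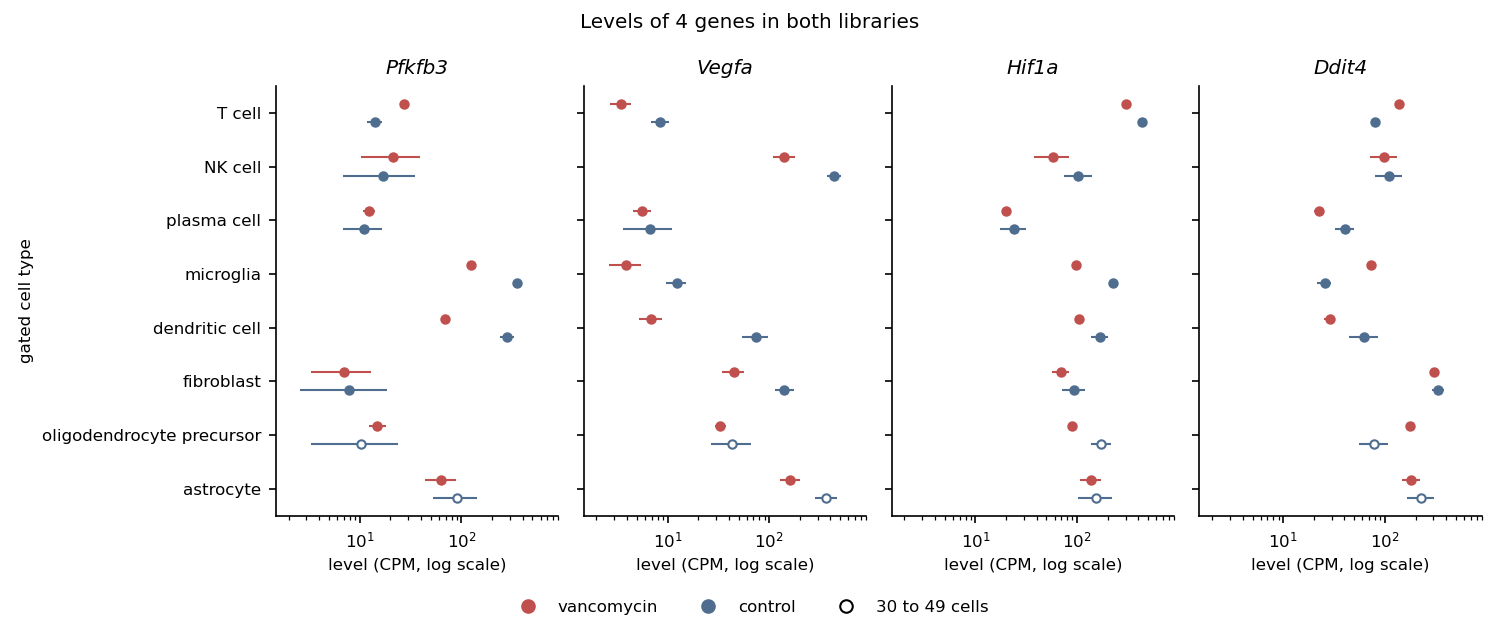
Level of Pfkfb3, Vegfa, Hif1a and Ddit4 in CPM on a log scale, by gated cell type, with exact Poisson 95% intervals as bars. Points of the vancomycin library lie above those of the control library, and open points rest on 30 to 49 cells. Vegfa lies to the left with vancomycin in NK cells (140.6 against 435.2 CPM), dendritic cells and fibroblasts, and Pfkfb3 in microglia and dendritic cells.

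Hif1a had a log2 ratio below 0 in all 6 types, from -1.13 in microglia to -0.16 in plasma cells, with intervals below a ratio of 1 in 4. In T cells it was 303.3 CPM with vancomycin and 430.1 CPM in the control (0.705, 0.679 to 0.733). CD8 T cells had 144.8 and 243.3 CPM, and CD4 T cells 480.6 and 688 CPM. The level of this messenger RNA is not a measure of the protein, whose stability is what low oxygen sets.

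With 10 CPM added, all measured core enzymes stayed within 2-fold apart from Aldoc in dendritic cells. Without it some weakly expressed ones did not, such as Hk3 in T cells (ratio 3.44, 1.63 to 8.39) and Eno2 in microglia (0.168, 0.0847 to 0.309). The core enzymes leaned slightly higher with vancomycin in 5 of the 6 types. Their median log2 ratio was 0.15 in T cells (median of all genes 0.05), 0.33 in plasma cells (0.15), 0.12 in microglia (0.01), 0.37 in dendritic cells (0.09) and 0.22 in fibroblasts (0.02), and -0.16 in NK cells (-0.09). Set against the median of the other types, the microglia median was -0.11 and that of fibroblasts -0.05, so this lean is not above the other types there. Rescaling by TMM factors moved the plasma cell median of all genes by -0.11 and left that of its core enzymes at 0.25. Tpi1, Gapdh and Eno1 had ratios above 1 in all 6 types, with intervals above 1 in 5. Tpi1, the triose isomerase, was nearest to 2-fold in T cells, at 173 CPM with vancomycin and 84.38 CPM in the control (2.05, 1.9 to 2.21, log2 ratio 0.96). CD4 T cells were at 205.9 and 93.38 CPM (log2 ratio 1.06) and CD8 T cells at 149.2 and 77.14 CPM. Plasma cells had 103.4 CPM of Ldha with vancomycin and 51.79 CPM in the control (2, 1.64 to 2.44), also within 2-fold on the log2 scale used.

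The median log2 ratio of the transporters and regulators lay below that of all genes in each compared type, though few were measured in some. The hypoxia targets had no common direction. For the 6 transporters and regulators the median was -0.28 in T cells (all genes 0.05), with 4 intervals below a ratio of 1 and 1 above. It was 0.05 in plasma cells (5 measured, all genes 0.15), -0.23 in microglia (6, 0.01), -0.16 in dendritic cells (4, 0.09), -0.43 in fibroblasts (2, 0.02) and -0.5 in NK cells (1, -0.09). These medians were not recomputed under the alternatives. Among the measured hypoxia targets the median was 0.07 in T cells, -0.03 in plasma cells, 0.1 in microglia, -0.56 in dendritic cells, -0.39 in fibroblasts and -0.86 in NK cells, where only 2 were measured. The medians of the hypoxia targets rest on few genes, and over the alternatives they ran from -1.03 to 0.3 in dendritic cells, -0.63 to 0.04 in fibroblasts, -0.09 to 1.36 in microglia, -0.01 to 0.47 in T cells and -0.64 to 0.03 in plasma cells. In those 5 types the sign thus depended on the processing. Slc16a1 and the core enzyme gene Hk2 had negative log2 ratios in each of the 4 types where they were measured, with intervals below a ratio of 1 in 3. Bnip3, Pdk1 and Adm stayed within 2-fold wherever measured, and Egln3, a prolyl hydroxylase of the hypoxia response, was measured in T cells alone (21.78 CPM with vancomycin, 20.2 CPM in the control).

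**Figure D5:**
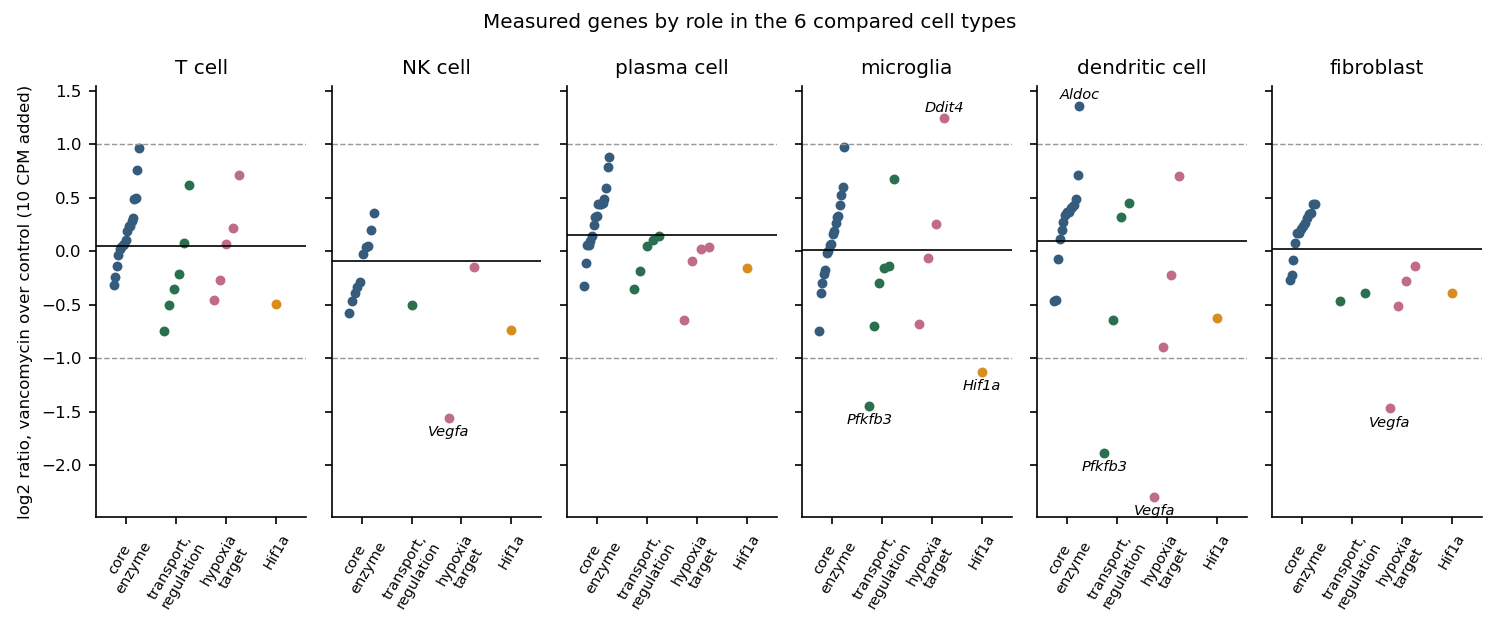
Log2 ratio of vancomycin over control, with 10 CPM added to both, for each measured gene in the 6 compared types, grouped by role. The solid line is the median of all measured genes of the type, and dashed lines mark 2-fold. Core enzymes lie mostly above the solid line outside NK cells, and the named points past 2-fold are Vegfa, Pfkfb3, Hif1a, Ddit4 and Aldoc.

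Of 90 further genes of glycolysis, pyruvate entry and the hypoxia pathway, few passed 2-fold. In T cells 64 were measured, 1 was higher with vancomycin (background 2.32%) and 2 were lower (background 1.20%). Fam162a was 101.8 CPM with vancomycin and 42.57 CPM in the control; Mxi1, a repressor of Myc targets, was 53.72 and 135.7 CPM, and Rora 129.8 and 325.1 CPM. In dendritic cells 2 of 49 were higher (background 4.45%) and 4 lower (4.33%): Ndrg1 was 41.91 CPM with vancomycin and 172.2 CPM in the control, Mxi1 25.05 and 111.6 CPM, Bhlhe40 393 and 1035 CPM, and the carrier Slc2a6 50.68 and 119.6 CPM. The named higher gene, Cited2, an inhibitor of hypoxia factor activity, was 111.6 and 49.42 CPM. Among 43 in fibroblasts, 1 was higher (background 2.82%) and 3 lower (2.52%), with Hmox1, the haem oxygenase, at 31.36 CPM against 144.2 CPM and Bhlhe40 at 130.3 CPM against 393 CPM. In microglia 0 of 57 and in plasma cells 0 of 49 passed, and in NK cells 1 of 17 (background 3.99% higher), Mpc2, a subunit of the mitochondrial pyruvate carrier, at 110.8 CPM against 48.9 CPM.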

How the data were processed

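Single-cell RNA was measured with 10x 5′ chemistry in 1 vancomycin and 1 control library. The authors deposited raw counts of UMIs for each gene in each barcode. They ran Cell Ranger, version 7.2.0 for vancomycin and 6.0.1 for control, per the file headers. The submitters' processing notes name mm10 as build and Partek as a further tool. The use of intron reads is not given in the sources, and counting introns in 1 library only would change levels unequally between genes. The files held 144451114 UMIs in 16596 vancomycin barcodes and 25609899 UMIs in 4272 control barcodes.

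Kept cells had 500 UMIs or more, 200 genes or more and up to 20% mitochondrial UMIs, which left out 5.24% of vancomycin and 3.84% of control barcodes. A cell was gated to a type with at least 3 of its 8 markers (135 of the 136 markers are in the files) and 2 more than of any other type. No doublet caller was run; the margin leaves out cells with similar numbers of markers of 2 types. UMIs were summed per type and scaled to CPM, and the 2 rows named Aldoa were summed. Intervals are exact Poisson for levels, exact conditional Poisson for ratios and Clopper-Pearson for shares, at 95%. The rule for naming took members past 2-fold with 100 CPM or more in the library where they were higher and an interval leaving out a ratio of 1, or where they carry an isoform share. It took Vegfa in NK cells and fibroblasts, Pfkfb3 in microglia and dendritic cells, Hif1a in microglia and, for its isoform share, Aldoc in dendritic cells. Ddit4 in microglia and Vegfa in dendritic cells, past 2-fold but under 100 CPM, were named after their values were seen. Types with 30 to 49 cells, the dendritic and T cell splits and the immediate early genes were added after the data were seen. The members and lists were chosen with earlier results of these data known. Ratio intervals were checked on simulated Poisson counts without variation between cells or libraries, so the check covers counting error only.

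Gene positions came from GENCODE M21 on GRCm38, which held 32235 of the 32285 gene IDs (99.85%), and promoter windows from RefSeq. Computation used scipy 1.17.1, pandas 2.3.3, numpy 2.4.6 and matplotlib 3.10.9 in Python 3.11.15. In R 4.3.3, DESeq2 1.42.0 and edgeR 4.0.16 gave scaling factors and no test. Alternatives were the added CPM, scaling factors, equal weight per cell, thinning to 1000 UMIs, the minimum UMIs, the gates, all barcodes, the top 5% of cells by UMIs left out, shared barcodes left out, 1 Aldoa row alone and values set against the median of the other types.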

Additional observations from a re-analysis of the deposited data

Results flagged for a closer look

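Ddit4 took opposite directions between cell types under the same comparison: its log2 ratio of vancomycin over control was 1.24 in microglia, against -0.64 in plasma cells and -0.9 in dendritic cells. With 1 library per group the difference between these types was not tested. The dendritic value rested on the cells with neither Ccr7 nor Fscn1, of which the control held 17 (log2 ratio -1.86); in the dendritic cells with either marker, 70.7% of the control gate, it was 0.4 (ratio 1.46, 0.735 to 3.3).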

How the results depend on the processing

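No paired analysis was possible because each group holds 1 library. Leaving out a replicate was not possible for the same reason. Of the 85 counts recomputed, 70 stayed within 1.5 times the reported count, and 15 did not. With 1 CPM added in place of 10, the genes past 2-fold were 4 in T cells, 7 in microglia and 5 in dendritic cells, against the reported 0, 3 and 3, and with 50 CPM 1 in microglia. Thinned to 1000 UMIs per cell they were 1 in T cells, 0 in NK cells, 1 in plasma cells, 1 in dendritic cells and 0 in fibroblasts, where fewer genes reach 50 UMIs. Set against the median of the other types they were 3 in T cells, 0 in NK cells, 2 in plasma cells and 0 in fibroblasts. Equal weight per cell gave 2 in plasma cells, and no minimum of UMIs 2 in fibroblasts. The cause was not tested. The share of all genes past 2-fold was not recomputed under these settings, so these counts have no background to be read against. Of 100 log2 ratios recomputed for the 8 differences past 2-fold, 0 changed sign. A margin was drawn from the width of the interval of the ratio without added CPM and capped at 1 log2 unit. The moves of 85 stayed within this margin. Vegfa ran from -3.23 to -1.12 in dendritic cells, Pfkfb3 from -1.61 to -1.22 in microglia and from -2.07 to -1.48 in dendritic cells. Among 1033 isoform shares 135 moved beyond their interval, the most for Pfkfb4 in vancomycin oligodendrocyte precursors (45.1%, and 60.6% without the top 5% of cells) and next for Ldhb in control plasma cells (16.8%, and 1.49% with the stricter gate). Of 153 medians of core enzymes and hypoxia targets 47 moved; those of the core enzymes changed sign in microglia and fibroblasts, those of the hypoxia targets in 5 types. The control library, with 25609899 UMIs, 58 dendritic and 75 NK cells, sets the precision.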
